A study of Zeugodacus cucurbitae with 52 samples.

Results

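Gene expression was compared between 5-d-old and 1-d-old female melon flies (*Zeugodacus cucurbitae*), which the study describes as vitellogenic and newly emerged in that order. The comparison rests on 8 of the 52 libraries of a survey of 13 life stages, 4 libraries of 1-d-old females and 4 of 5-d-old females, and it covered the 17097 of 18241 genes with more than 0.1 TPM in at least 4 libraries of the survey. TPM is a transcript level divided by gene length and by the total of the library, and the values of a library sum to 1000000. All flies, of both ages and both sexes, came from 1 colony founded from pupae collected at Haikou, carried no mutation and got no treatment named in the labels, were kept at 26–27 °C, fed sucrose, yeast powder and honey, and were virgin. Each library was made from whole bodies of 3 pooled adults, so every level is an average over 3 animals and over all of their tissues. In whole bodies, fewer cells of a type and less RNA per cell cannot be told apart. The 4 libraries of 1-d-old males and the 4 of 5-d-old males gave the change with age without an ovary, and the 4 libraries of 9-d-old females are given beside the others as a later age.

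In higher flies, eggs grow in the ovary from a cyst of germ cells in which 1 cell becomes the oocyte and its sisters, the nurse cells, supply it with RNA and protein. Follicle cells around the cyst and the fat body secrete yolk proteins, which the oocyte takes up through a receptor on its surface. Late in growth the follicle cells lay down the vitelline membrane and then the chorion, the layers of the eggshell. A newly emerged adult, in contrast, is still finishing its cuticle and its flight muscle.

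The table gives no read counts per gene, so the depth behind a single value is unknown, and the 8 libraries listed 13392 to 13786 genes above 0.1 TPM. Pearson's r of log10(TPM + 1) was 0.978 to 0.982 among 1-d-old libraries, 0.976 to 0.981 among 5-d-old libraries and 0.85 to 0.88 between the ages. Genes annotated to sperm and testis (62 tested) summed to 0.0279% to 0.0444% of TPM in the female libraries, against means of 0.327% and 0.35% in 1-d-old and 5-d-old males. The reads were on average shorter in all 1-d-old than in all 5-d-old libraries, by the read and base totals that the study lists per library, and within females this step and age cannot be told apart. The 1-d-old and 5-d-old males differ in read length in the same way, so an effect of it that is equal in both sexes drops out of the difference between the sexes.

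Many more genes rose than fell. With a change called at an adjusted p under 0.05 in limma and an absolute log2 fold change above 2 on the scale of log2(TPM + 1), 1157 genes (6.77% of those tested) rose from day 1 to day 5 and 178 (1.04%) fell, 1335 in all (7.81%). The 4 libraries of one age did not overlap those of the other for 1137 of the genes that rose and 174 of those that fell, against 50.8% of all genes tested. The calls come from the same libraries, so a lack of overlap, here and below, is a description and no further support. The genes that rose had a median of 2.12 TPM on day 1 and 30.25 TPM on day 5, and 65 of them were listed at 0 in every 1-d-old library. The genes that fell had a median of 55.6 TPM on day 1 and 4.4 TPM on day 5. Of the reference genes 8.18% rose, and of the genes newly assembled by the authors 2.26% did.

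TPM values share a fixed total, and a few cuticle genes held much of the total on day 1. The 10 most abundant genes took 21.7% to 23.1% of TPM in 1-d-old females and 16.3% to 18.9% in 5-d-old females. Median-of-ratios size factors, computed from 6902 genes, were 0.806 to 0.837 on day 1 and 1.3 to 1.36 on day 5, and scaling by them lowered the log2 change of an abundant gene by 0.70. After that scaling 693 genes rose (4.05%) and 379 fell (2.22%), so the share of calls that were higher went from 86.7% to 64.6%. All of the 693 and all of the 178 genes were called under both scalings. The median log2 change of all genes tested went from 0.05 to −0.10, and values after the scaling are given below as rescaled.

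**Figure D1:**
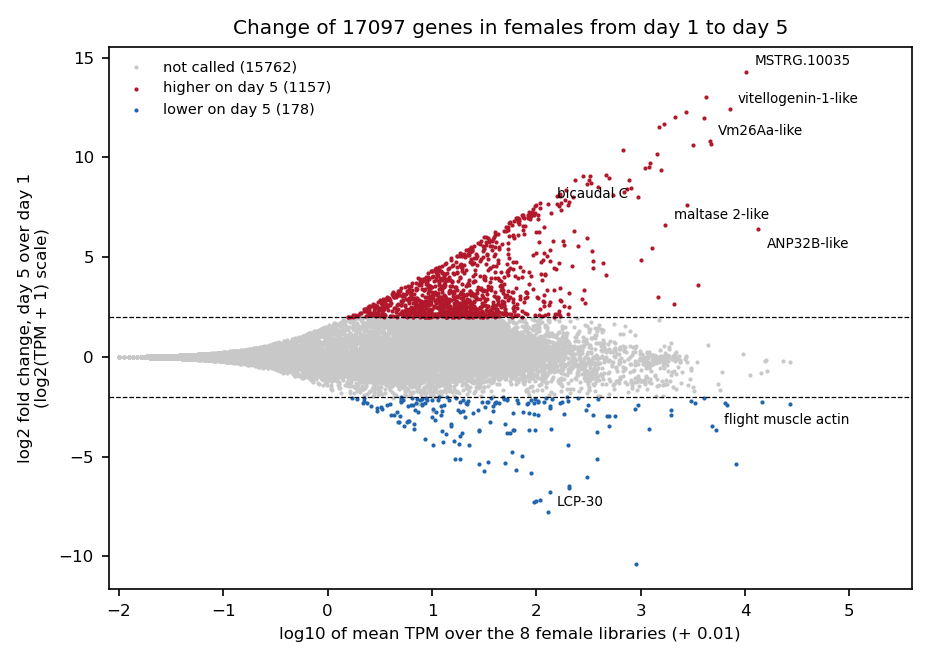
Each point is 1 of the 17097 genes tested, with the log10 of its mean TPM over the 8 female libraries on the x axis and its log2 change from day 1 to day 5, on the scale of log2(TPM + 1), on the y axis. The 1157 genes called higher lie above the upper dashed line at 2, several of them at changes above 10, and the 178 called lower lie below the lower line, with the rescaled counts 693 and 379.

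The yolk protein genes showed some of the largest rises of the comparison. Of 14 yolk protein genes tested (annotated vitellogenin or yolk protein) 5 rose and none fell, also when rescaled. Vitellogenin-1-like gene11335 was listed at 2.55, 0.84, 1.08 and 2.17 TPM in the 1-d-old libraries and at 18180.0, 13617, 15068 and 10024 TPM in the 5-d-old libraries. The ages are separated by more than 3 orders of magnitude in every library, and the log2 change was 12.41 (SE 0.28, adjusted p = 5.6e-34). Vitellogenin-2-like gene11334 went from 0.8, 0.73, 0.49 and 0.54 TPM to 14088, 7103, 8780.4 and 2215 TPM, a log2 change of 11.99 (SE 0.43, adjusted p = 2.8e-26). A second vitellogenin-1-like gene, gene9671, went from 0.72, 0.9, 1.99 and 1.48 TPM to 13466, 5275, 6570.2 and 306 TPM, with a log2 change of 10.61 (SE 0.89, adjusted p = 6.0e-14). In these genes, too, the ages did not overlap, but the 4 libraries of day 5 were far from equal, and replicate 4 was the lowest in each of them. Without it the log2 change of gene11334 was 12.52 and that of gene9671 was 11.77.

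Vitellogenin-1-like gene11338 did not share that order, with 3.08, 1.06, 1.87 and 2.31 TPM on day 1 and 2572, 1356, 2139 and 2716 TPM on day 5 (log2 change 9.47, SE 0.19, adjusted p = 4.5e-36). Its highest 5-d-old library was replicate 4. Vitellogenin-1-like gene7400 was listed at 0 on day 1 and at 4.85, 6.86, 6.56 and 7.31 TPM on day 5 (adjusted p = 6.4e-28), a level far below that of the others. The remaining 9 yolk protein genes were not called, with log2 changes from −0.67 in gene7402 to 0.60 in gene7401. The list as a whole therefore had a median log2 change of 0.06 (−0.31 rescaled) while its 5 called members reached from 2.87 to 12.41. All 14 together took 0.0575, 0.06, 0.0566 and 0.0548% of TPM in the 1-d-old libraries and 4.87, 2.78, 3.29 and 1.57% in the 5-d-old libraries. Each of the 5 called genes was at or below 3.08 TPM in every 1-d-old library, so most of the day 1 share came from the other 9. In males the list took means of 0.0463% on day 1 and 0.0492% on day 5. In the order of the RefSeq annotation (assembly idZeuCucr1.2), gene11338, gene11335 and gene11334 are direct neighbours on 1 chromosome, and gene9671 lies on the same chromosome with 322 coding genes between.

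The receptor that imports yolk into the oocyte rose as well. The putative vitellogenin receptor, gene2859, stood at 0.79, 0.48, 0.75 and 0.75 TPM on day 1 and at 429.8, 294, 319.6 and 269.8 TPM on day 5 (log2 change 7.59, SE 0.17, adjusted p = 6.3e-34). Its 4 libraries of day 5 lay close together, unlike those of gene11334 and gene9671. Males held 0.0225 TPM on day 1 and 0.117 TPM on day 5.

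The eggshell genes were almost silent on day 1, and on day 5 their level depended on the library. Of 10 vitelline membrane and chorion genes tested 7 rose and none fell, in both scalings, with a median log2 change of 5.94 (5.6 rescaled). Vitelline membrane protein Vm26Aa-like gene4569, a structural protein of the inner eggshell, was listed at 0 in all 1-d-old libraries and at 17380.3, 13782, 6607 and 3.73 TPM in the 5-d-old libraries (adjusted p = 1.5e-08). Its neighbour gene4571, annotated alike and separated from it by 1 gene, went from 0.82, 0, 0.12 and 0.59 TPM to 20732, 8881, 6929 and 26.2 TPM, a log2 change of 10.82 (SE 1.29, adjusted p = 9.0e-10). In both genes replicate 4 of day 5 was lower than the other 5-d-old libraries by 2 orders of magnitude or more. It still lay above every 1-d-old library.

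Chorion genes, which are switched on later than those of the vitelline membrane in *Drosophila*, were also uneven among the 5-d-old libraries. Chorion protein S16 (gene4310) was listed at 0 on day 1 and at 1560.2, 1396, 1351 and 1.1 TPM on day 5 (adjusted p = 4.0e-07). Chorion protein S38 (gene4406) was listed at 0 on day 1 and at 21.9, 1373, 459 and 1.8 TPM on day 5 (adjusted p = 1.2e-06). Chorion protein S36 (gene4407) held 0.05, 0, 0 and 0 TPM on day 1 and 3.88, 1456, 554 and 0.32 TPM on day 5 (log2 change 5.56, SE 1.19, adjusted p = 9.4e-05). S36 was not called in a fit of the compared stages alone (adjusted p = 0.094). S16 was high in replicates 1, 2 and 3, as was gene4569, whereas S36 and S38 were high in replicates 2 and 3 only. In the order of the annotation S36 and S38 are neighbours within a run of 5 genes (gene4410 to gene4406), and S16 stands beside the fibroin heavy chain-like gene4308. That gene went from 0, 0, 0.02 and 0.12 TPM to 1531, 1262, 1109 and 32.7 TPM (log2 change 8.97, SE 0.87, adjusted p = 3.7e-12), and it was also lowest in replicate 4. Serum response factor homolog A (gene4408), the gene next to S36, was listed at 0 on day 1 and at 0.18, 238, 127 and 0.05 TPM on day 5, with the highest values in the same libraries as S36 (adjusted p = 3.8e-04, and 0.168 in a fit of the compared stages alone).

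Gene7265, annotated as the defective chorion-1 protein that builds vitelline membrane and inner chorion in *Drosophila*, went from 0.01, 0.53, 0 and 0 TPM to 498, 216, 91.7 and 29.8 TPM (log2 change 6.89, SE 0.54, adjusted p = 7.3e-15). Replicate 1 was its highest 5-d-old library and replicate 4 its lowest. Nudel (gene7980) is a follicle cell protease that the cross-linking of the vitelline membrane requires in *Drosophila*. It had the same highest and lowest library, with 62.6, 25.02, 12.7 and 1.12 TPM on day 5, after 0.67, 0.96, 1.08 and 0.92 TPM on day 1 (log2 change 2.96, SE 0.55, adjusted p = 1.2e-05). The other 3 members of the list (gene8035, gene8462 and gene8464) were not called, with log2 changes of 0.13, −0.09 and −0.03. The summed share of the eggshell list was 0.000657% to 0.000831% in the 1-d-old libraries and 4.03, 2.71, 1.6 and 0.00725% in the 5-d-old libraries. Without 5-d-old replicate 4 the log2 changes were 12.98 for gene4571, 7.6 for gene7265, 7.29 for S36, 10.29 for gene4308 and 3.89 for nudel, and without replicate 2 that of S36 was 3.92. The 7 calls held whichever of the 8 libraries was left out, while S36 was lost in the other fit given above.

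**Figure D2:**
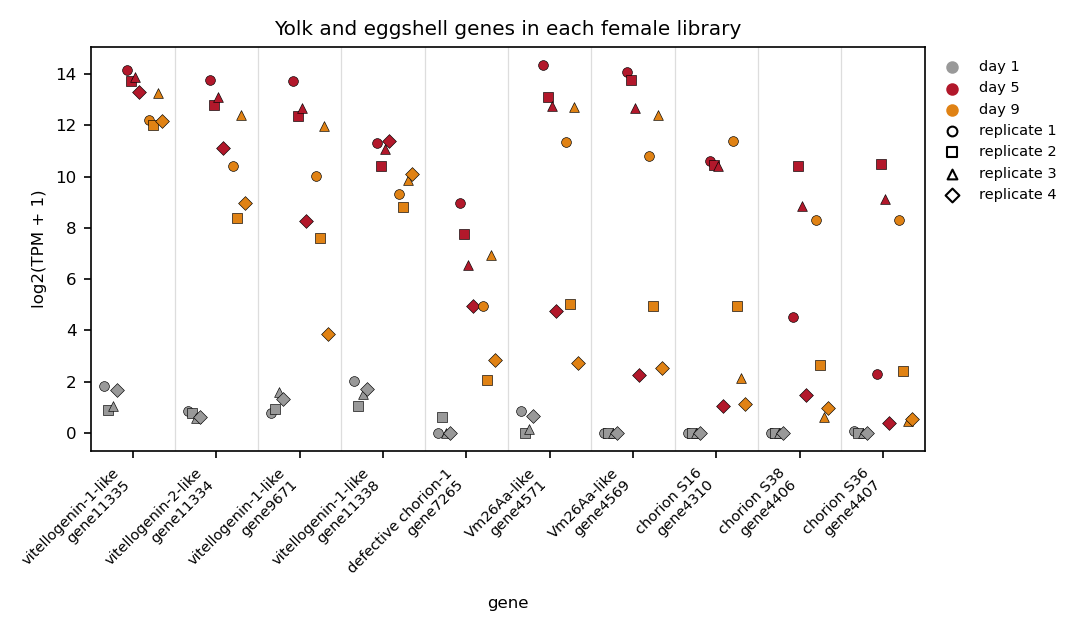
The y axis gives log2(TPM + 1) and the x axis 10 yolk and eggshell genes, with 1 point per library, coloured by the age of the females and shaped by replicate. The 1-d-old libraries lie near 0, gene11335 and gene11338 are high in all 4 libraries of day 5, and the Vm26Aa-like and chorion genes spread over much of the axis on days 5 and 9, with replicate 4 of day 5 at 3.73 TPM for gene4569.

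Such unevenness was rare among the genes expressed on day 5. Among the 7182 genes that averaged 10 TPM or more in 5-d-old females, 70 spanned more than 4 log2 units between the lowest and the highest 5-d-old library, and in 1-d-old females 35 of 5308 genes did. This limit was chosen after the values were seen. Replicate 4 was the lowest library in 39 of the 70 genes, and replicates 2 and 1 were the highest in 33 and 20. The median range of all 7182 genes was 0.37 log2 units on day 5, and that of the 5308 genes was 0.24 on day 1. Extensin-like gene11236 belonged to the 70, with 0.07, 0.09, 0.05 and 0 TPM on day 1 and 6267, 3007, 2118 and 55.4 TPM on day 5 (log2 change 10.19, SE 1.02, adjusted p = 1.1e-11, and 11.67 without 5-d-old replicate 4). So did mucin-2-like gene11155, with 0.59, 0, 0 and 0.67 TPM on day 1 and 6319.9, 889.6, 2429 and 55.2 TPM on day 5 (log2 change 9.52, SE 1.19, adjusted p = 3.3e-09, and 10.87 without that replicate). Mucin-2-like gene11162, from the same stretch of the chromosome, was even on day 5, with 496, 543, 623 and 765 TPM after 0.75, 0, 0.08 and 1.43 TPM (log2 change 8.68, SE 0.16, adjusted p = 1.3e-37).

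A group of unannotated transcripts that were absent or nearly so on day 1 took several percent of TPM on day 5. MSTRG.10035, a gene newly assembled by the authors and with no product name, was listed at 0 in all 1-d-old libraries and at 20045, 23840.2, 16303 and 21221 TPM in the 5-d-old libraries (adjusted p = 7.4e-32). It was among the 5 most abundant genes of 5-d-old females. In 9-d-old females it held 9912, 11191, 13189 and 9970.3 TPM, and in 5-d-old males a mean of 3.56 TPM. Another 5 newly assembled genes with close identifiers (MSTRG.10025, MSTRG.10027, MSTRG.10029, MSTRG.10031 and MSTRG.10033), looked up after the values were seen, showed the same pattern. MSTRG.10027 went from 0.29, 0, 0 and 0 TPM to 4046, 5624, 5768 and 6309 TPM, and MSTRG.10029 from 0 to 3026, 4441, 4723 and 4861 TPM. The 6 genes, 322 to 528 nt long, together took 3.4, 4.23, 3.41 and 4.05% of TPM in the 5-d-old libraries and a mean of 1.34% on day 9. Their highest single value in any library of another stage was 7.37 TPM. Their sequences and positions were not analysed here.

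Uncharacterized gene7911 behaved alike, listed at 0 on day 1 and at 7027, 8336, 9284 and 9177 TPM on day 5 (adjusted p = 1.3e-41). It was even among the 5-d-old libraries, and males held 0.37 TPM on day 5. This gene was also picked after its values were seen.

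Many genes that load the oocyte and pattern the embryo rose. Of 20 genes for maternal patterning and germ plasm 12 rose, 8 were not called and none fell, in both scalings, with a median log2 change of 3.02 (2.48 rescaled). Bicaudal C (gene5283), an RNA-binding protein of the *Drosophila* oocyte, went from 0.33, 0.29, 0.4 and 0.14 TPM to 303, 262, 219 and 254 TPM, a log2 change of 7.65 (SE 0.08, adjusted p = 7.8e-46). Nanos (gene7866), a translational repressor of the posterior pole and the germ line, went from 0.24, 0.03, 0.16 and 0.19 TPM to 88.9, 98.8, 64.1 and 67.1 TPM (log2 change 6.11, SE 0.13, adjusted p = 2.5e-35). Both genes were even among the 5-d-old libraries, and neither overlapped between the ages. Exuperantia (gene1934) and swallow (gene8162), needed in *Drosophila* to localize *bicoid* RNA, had means of 659.6 ± 97.4 TPM and 68.3 ± 8.81 TPM (SD, n = 4) on day 5, after 15.7 ± 1.43 TPM and 0.11 ± 0.0668 TPM on day 1.

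Some genes of the germ line were already above 1 TPM on day 1, unlike nanos and aubergine. Vasa (gene11258), the RNA helicase that marks germ cells, went from 11.6, 11.2, 13.7 and 11.8 TPM to 282, 284, 268 and 298 TPM (log2 change 4.44, SE 0.14, adjusted p = 2.4e-28). Oskar (gene9179), which assembles germ plasm in *Drosophila*, went from 2.62 ± 0.316 TPM to 42.95 ± 6.91 TPM (SD, n = 4, log2 change 3.59, SE 0.14). Cup (gene10425), a repressor of translation in the ovary, went from 16.7 ± 0.719 TPM to 139 ± 18.3 TPM (SD, n = 4, log2 change 2.98, SE 0.15). Of 8 genes of the piRNA pathway, which silences transposons in the germ line, 2 rose (1 when rescaled) and none fell. Aubergine (gene2018) went from 0.08, 0, 0 and 0.09 TPM to 169.7, 139, 98.5 and 81.3 TPM (log2 change 6.83, SE 0.20, adjusted p = 1.7e-29). Argonaute-3 (gene11843), the partner of aubergine in the amplification of piRNAs, went from 3.65 ± 0.328 TPM to 25.5 ± 1.36 TPM (SD, n = 4), with a log2 change of 2.51 (1.89 rescaled, below the threshold). The RNA-binding protein maelstrom 1 (gene11797) reached 315, 305, 224 and 207 TPM from 8.87, 8.09, 8.44 and 7.18 TPM.

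Members of the protease cascade that sets the dorsal to ventral axis of the *Drosophila* egg were among the serine proteases that rose. Of 105 serine proteases other than trypsins 4 rose (3.81%) and 1 fell (0.952%), in both scalings. The list as a whole thus did not exceed the 6.77% and 1.04% of all genes tested. Serine protease gd (gene12242), which starts the cascade in *Drosophila*, went from 0.1, 0.04, 0.08 and 0.12 TPM to 29.4, 28.2, 21.6 and 26.8 TPM (log2 change 4.66, SE 0.08, adjusted p = 3.8e-38). Snake (gene3418), which acts after gd, went from 0.25, 0.29, 0.09 and 0.46 TPM to 47.5, 48.5, 35.1 and 42.97 TPM (log2 change 5.13, SE 0.12, adjusted p = 3.8e-33). Easter-like gene5651, named for the last protease of the cascade, was listed at 0 on day 1 and at 20.02, 25.03, 11.9 and 30.4 TPM on day 5 (adjusted p = 7.3e-28). The fourth was nudel, described above. Dorsal-like gene7728, named for the transcription factor that the cascade controls, went from 0.12, 0.09, 0.2 and 0.18 TPM to 64.05, 61.04, 42.5 and 62.3 TPM (log2 change 5.65, SE 0.10, adjusted p = 8.2e-39). None of these genes overlapped between the ages. In 5-d-old males gd held 0.02 TPM, snake 0.372 TPM and easter-like 0.

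Many of the DNA replication genes rose. Of 47 genes tested 32 rose (21 rescaled), none fell, and the log2 change was positive in all 47 (46 rescaled), with a median of 2.31 (1.73 rescaled). Plutonium (gene7602), which restrains replication in the *Drosophila* egg, went from 0.46, 0, 0.4 and 0.37 TPM to 179.9, 207, 123 and 157 TPM (log2 change 7.0, SE 0.11, adjusted p = 3.8e-40). Origin recognition complex subunit 1 (gene10705) went from 1.24, 1.13, 1.19 and 1.37 TPM to 36.03, 38.4, 25.9 and 43.7 TPM (log2 change 4.03, SE 0.16, adjusted p = 4.3e-25). The licensing factor Cdt1 (gene2041) had means of 2.24 ± 0.351 TPM and 66.8 ± 19.9 TPM, and its inhibitor geminin (gene9615) had 9.89 ± 1.12 TPM and 94.4 ± 22.03 TPM (SD, n = 4). The helicase subunit Mcm2 (gene7267) rose from 3.31 ± 0.626 TPM to 61.6 ± 8.42 TPM (SD, n = 4, log2 change 3.86, SE 0.19). The sliding clamp proliferating cell nuclear antigen (gene12935) had a log2 change of 2.19, which was 1.51 when rescaled and then missed the threshold. The summed share of the list was 0.0324% to 0.0355% of TPM on day 1 and 0.156% to 0.22% on day 5.

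A part of the mitotic and meiotic regulators rose. Of 50 cyclin and mitosis genes 20 rose (17 rescaled) and none fell, while 5 had a negative log2 change. Cyclin-B (gene5861), which drives entry into division, went from 0.84, 0.69, 0.76 and 0.51 TPM to 488, 518, 333 and 439 TPM, a log2 change of 8.02 (SE 0.21, adjusted p = 1.0e-31). Cyclin-B3 (gene12006) reached 87.1 ± 18.3 TPM and cyclin-E (gene11256), which drives entry into DNA synthesis, 46.4 ± 11.98 TPM (SD, n = 4), both from below 2 TPM on day 1. Of 6 meiosis genes 4 rose (3 rescaled), among them cortex (gene12136), an activator of the anaphase-promoting complex in female meiosis in *Drosophila*, with 0.12, 0.12, 0.24 and 0.32 TPM on day 1 and 50.5, 52.4, 36.9 and 43.1 TPM on day 5 (log2 change 5.27, SE 0.09, adjusted p = 1.1e-37). Polo kinase (gene311) rose from 0.812 ± 0.173 TPM to 73.5 ± 11.2 TPM and the M-phase inducer phosphatase (gene5636) from 0.417 ± 0.11 TPM to 62.7 ± 11.6 TPM (SD, n = 4). The protein fs(1)Ya (gene7430), needed for the first mitosis of the *Drosophila* embryo, went from 0.24, 0.18, 0.38 and 0.16 TPM to 139, 146, 97.8 and 154 TPM. Its ages did not overlap.

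Histone genes differed in their change with age. Of 7 measured in these poly(A) libraries 4 rose (3 rescaled). Histone H1-like gene7946, a linker histone, went from 0.07, 0.09, 0.19 and 0.2 TPM to 120.4, 110.0, 80.7 and 102 TPM (log2 change 6.5, SE 0.32, adjusted p = 1.4e-21), and H1-like gene12712 from 6.87, 3.83, 7.91 and 8.26 TPM to 241, 321, 126 and 219.9 TPM (log2 change 4.85, SE 0.25). The H1-like gene3237, in contrast, was at or below 0.1 TPM in every female library and held means of 68.3 TPM and 75.3 TPM in 1-d-old and 5-d-old males. The replacement histone H3.3 (gene6540) had a log2 change of 0.31 and histone H4 (gene6094) of 0.23, and rescaled they were -0.39 and -0.46, so their direction depends on the scaling. Most histone messages carry no poly(A) tail, and these libraries would miss them.

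Genes for ribosomal proteins and for ribosome assembly differed in their counts. None of 77 cytosolic ribosomal protein genes was called by limma, with a median log2 change of −0.11 (−0.81 rescaled), while 6 were higher and 32 lower at an unadjusted p under 0.05 with no minimum change. Of 61 genes for ribosome biogenesis 6 rose (1 rescaled), none fell and 60 had a positive log2 change (48 rescaled), 58 of them at an unadjusted p under 0.05, with a median of 1.17 (0.50 rescaled). The share of all genes tested at that unadjusted limit was not counted. Counts at that limit, here and below, therefore do not set a list apart from other genes.

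A part of the hormone genes with a known role in the ovary rose. Of 6 cytochrome P450 genes of ecdysteroid synthesis and breakdown 3 rose (50%), in both scalings, against 6.77% of all genes tested, and none fell. Cytochrome P450 307a1-like (gene9243), from an early step of ecdysone synthesis, went from 0.36, 0.05, 0.18 and 0.05 TPM to 21.9, 14.9, 25.8 and 24.2 TPM (log2 change 4.27, SE 0.21, adjusted p = 1.6e-21). Cytochrome P450 315a1 (gene11123), from a late step, went from 0.25, 0.23, 0.26 and 0.11 TPM to 17.6, 15.5, 12.5 and 13.04 TPM (log2 change 3.68, SE 0.11, adjusted p = 1.1e-29). Cytochrome P450 306a1 (gene5569) went from 0.03, 0, 0 and 0 TPM to 3.4, 8.49, 9.57 and 34.5 TPM (log2 change 3.47, SE 0.30, adjusted p = 2.0e-13), and here replicate 4 was the highest of the 5-d-old libraries and replicate 1 the lowest, the reverse of the order seen in the vitelline membrane genes. Ecdysone 20-monooxygenase (gene117), which makes the active hormone, cytochrome P450 302a1 (gene4259) and the inactivating cytochrome P450 18a1 (gene5568) were not called, with log2 changes of 1.38, 1.11 and 1.47.

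Of 23 nuclear receptor and ecdysone response genes 3 rose (2 rescaled). Ecdysone-induced protein 74EF-like (gene11189), a transcription factor induced by ecdysone, went from 4.71, 5.79, 6.14 and 4.22 TPM to 64.6, 67.7, 51.8 and 55.99 TPM (log2 change 3.3, SE 0.19, adjusted p = 6.5e-19). The nuclear receptor FTZ-F1 (gene1101) had means of 1.15 ± 0.299 TPM and 12.8 ± 2.32 TPM (SD, n = 4). Among 5 genes of juvenile hormone metabolism the epoxide hydrolase gene1999, which degrades the hormone, rose from 20.3, 17.4, 16.03 and 14.9 TPM to 478, 476, 345 and 392 TPM (log2 change 4.54, SE 0.19, adjusted p = 8.5e-24). The other 4 were not called.

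Both genes annotated insulin receptor rose, out of 14 genes of insulin and TOR signalling of which 3 rose (2 rescaled). Insulin signalling couples feeding to egg growth in flies. Gene9355 went from 4.08, 3.82, 4.27 and 4.93 TPM to 237, 184, 176 and 174 TPM (log2 change 5.19, SE 0.13, adjusted p = 7.2e-33), and gene11141 from 3.72, 3.27, 3.68 and 3.52 TPM to 143, 136, 105 and 108 TPM (log2 change 4.76, SE 0.10, adjusted p = 5.9e-35). Forkhead box protein O (gene3117), a transcription factor held inactive by insulin, had means of 16.4 ± 1.31 TPM and 102 ± 43.2 TPM (SD, n = 4), with a log2 change of 2.47 (1.79 rescaled, below the threshold). The insulin-like receptor gene2317 was not called (log2 change 1.6, 1.02 rescaled). No gene was called by limma among 35 for neuropeptides and hormone receptors, of which 1 was higher and 13 lower at an unadjusted p under 0.05. The share of all genes at that limit was not counted.

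Of 29 genes for heat shock proteins, chaperones that keep other proteins from aggregating, 6 rose (5 rescaled) and 1 fell, with a median log2 change of 1.02 (0.33 rescaled). Heat shock protein 23-like gene1548 went from 3.75, 2.53, 3.37 and 4.34 TPM to 1640.5, 2096, 1297 and 1456 TPM (log2 change 8.49, SE 0.60, adjusted p = 2.7e-16). Heat shock protein 23-like gene1553 went from 8.72, 7.58, 9.53 and 9.12 TPM to 745, 728, 483 and 482 TPM (log2 change 5.94, SE 0.51), and heat shock protein 27 (gene1557), its direct neighbour, from 7.54, 3.64, 6.19 and 9.33 TPM to 268, 277, 206 and 241 TPM (log2 change 5.07, SE 0.52). The libraries of the ages were far apart in all 3 genes. The one that fell was the heat shock 70 kDa protein cognate 1 (gene451), from 171 ± 5.26 TPM to 37.01 ± 5.76 TPM (SD, n = 4, log2 change -2.19, SE 0.11).

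Several other abundant genes of 5-d-old females had been low on day 1. Gene12317, annotated as an acidic leucine-rich nuclear phosphoprotein, was the most abundant gene on day 5, with 24905, 28669, 22713 and 29247 TPM after 458, 332, 198 and 286 TPM (log2 change 6.42, SE 0.32, adjusted p = 3.8e-21). It rose in males as well, from a mean of 66.8 TPM to 1887 TPM. Maltase 2-like gene3617, named for an enzyme that splits sugars, went from 32.9, 32.5, 33.2 and 34.5 TPM to 3929, 3769, 2714 and 3234 TPM (log2 change 6.62, SE 0.20, adjusted p = 2.5e-29), whereas of all 39 maltases and glycosidases 2 rose (1 rescaled). Its mean in eggs was 159.8 TPM. Salivary glue protein Sgs-3-like gene9664 went from 1.19, 1.61, 2.77 and 2.42 TPM to 2569, 2646, 1979.7 and 2661 TPM (log2 change 9.71, SE 0.41), and thioredoxin-1 (gene4436), a small redox protein, from 1.06, 0.62, 0.44 and 0.57 TPM to 823, 1035, 749 and 1131 TPM (log2 change 9.12, SE 0.40). In both, day 9 was higher still, with means of 5502 TPM and 2412 TPM.

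Single genes named for protease inhibitors and proteases rose too. Chymotrypsin inhibitor-like gene13720 went from 2.36, 3.12, 5.41 and 4.71 TPM to 2574, 3207, 3305 and 3474 TPM (log2 change 9.36, SE 0.42), and sarcocystatin-A-like gene7515, named for an inhibitor of cysteine proteases, from 0.13, 0, 0 and 0 TPM to 493, 517, 674 and 561 TPM (log2 change 9.08, SE 0.38). Of 78 trypsins and chymotrypsins, digestive enzymes for the most part, 3 rose and 1 fell (3 and 3 rescaled). These were 3.85% and 1.28% of the list, beside 6.77% and 1.04% of all genes tested. Trypsin-like gene5052 was listed at 0 on day 1 and at 452, 532, 435 and 459 TPM on day 5 (adjusted p = 4.5e-41), and trypsin alpha-3-like gene5050, 1 gene away, was listed at 0 and then at 27.6, 42.3, 37.7 and 40.9 TPM (adjusted p = 4.1e-35). The median log2 change of all 78 was −0.04 (−0.31 rescaled). UDP-glucuronosyltransferase 2C1-like gene2633, from a family that attaches sugars to small molecules, went from 0.14, 0.13, 0.23 and 0.23 TPM to 185, 168, 154 and 156 TPM (log2 change 7.14, SE 0.08).

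Some antimicrobial peptide genes rose, several of them unevenly among the libraries. Of 40 antimicrobial peptide and lysozyme genes 12 rose (6 rescaled) and none fell, with a median log2 change of 0.42 (0.0092 rescaled). Among the 12, 8 did not overlap between the ages, beside 1137 of all 1157 genes that rose. Diptericin-A-like gene2001 went from 5.97, 4.42, 1.33 and 0.88 TPM to 255, 286, 13.7 and 23.2 TPM (log2 change 4.32, SE 1.07, adjusted p = 6.1e-04). Attacin-B-like gene4072 went from 8.45, 5.29, 0.7 and 6.96 TPM to 168, 239.9, 4.24 and 14.5 TPM (log2 change 3.0, SE 1.19, adjusted p = 0.0326), and its ages overlapped. Replicates 1 and 2 of day 5 were high in both genes and replicates 3 and 4 were not. Without replicate 2 of day 5 the count of members that rose was 7, and gene4072 was then not called (log2 change 2.17), nor was it without 5-d-old replicate 1 (2.34) or 1-d-old replicate 3 (2.45). With a term for read length in the fit 2 members rose. Attacin-A-like gene12382 and lysozyme D-like gene5012 were even, with 44.4, 51.5, 32.6 and 39.6 TPM and 78.6, 94.8, 84.3 and 84.96 TPM on day 5 after 0, 0, 0 and 0.21 TPM and 11.5, 13.2, 12.4 and 10.9 TPM on day 1.

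Cuticle protein genes made up 40 of the 178 genes that fell. Of 153 tested 40 fell (42 rescaled) and 1 rose (1 rescaled). Among the 40, 39 did not overlap between the ages, beside 174 of all 178 genes that fell. Their summed share of TPM was 13.4, 13.3, 12.6 and 12.7% in the 1-d-old libraries and 1.95, 1.97, 3.11 and 2.72% in the 5-d-old libraries. Larval cuticle protein LCP-30 (gene9496) went from 292, 242, 265 and 241 TPM to 0.29, 0.21, 0 and 0.26 TPM (log2 change -7.78, SE 0.19, adjusted p = 7.2e-33). Larval cuticle protein 8-like gene817 went from 72.4, 212, 191 and 278 TPM to 0.24, 0, 0 and 0.22 TPM (log2 change -7.26, SE 0.83, adjusted p = 3.7e-10). Pupal cuticle protein G1A-like gene8018 went from 407, 378, 440.1 and 385 TPM to 1.54, 1.66, 7.63 and 6.12 TPM (log2 change -6.48, SE 0.31, adjusted p = 5.7e-22). These genes, named for earlier stages, were thus still expressed on the first day of adult life and close to 0 or at a few TPM on day 5.

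Adult cuticle protein genes made up most of the share. Adult cuticle protein 1-like gene11480 was the most abundant gene of 1-d-old females, with 47096, 46064, 43189 and 43229 TPM on day 1 and 7242, 7053, 11012 and 9991 TPM on day 5 (log2 change -2.37, SE 0.74, adjusted p = 0.0058). Adult cuticle protein 1 (gene11477) went from 26523, 23833, 21541 and 24800.3 TPM to 4046, 4519, 5814 and 6221 TPM (log2 change -2.25, SE 0.53, adjusted p = 3.2e-04). Both remained among the abundant genes on day 5, and with a term for read length neither was called (log2 changes -2.28 and -2.11, adjusted p = 0.185 and 0.0712). Adult cuticle protein 1-like gene11478, a direct neighbour of gene11477, fell much further, from 16663, 16943, 15201 and 15710.3 TPM to 240.4, 372, 745 and 339 TPM (log2 change -5.37, SE 0.51, adjusted p = 1.8e-12). Trichohyalin (gene11476), the next gene in that run, went from 76.4, 61.9, 117 and 139 TPM to 0.65, 1.71, 1.83 and 1.48 TPM (log2 change -5.32, SE 0.26). Day 9 means of the 4 genes were lower again, at 464, 368, 10.7 and 0.448 TPM.

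Enzymes that finish the cuticle fell in part. Of 26 tanning and melanin genes 2 fell (4 rescaled) and none rose. Laccase-5 (gene3243), named for the oxidases that harden cuticle, went from 146, 159.8, 178 and 149 TPM to 10.5, 10.04, 13.8 and 11.7 TPM (log2 change -3.67, SE 0.47, adjusted p = 5.8e-09), and yellow (gene13142), a melanin pathway protein, from 10.2, 13.6, 13.7 and 14.9 TPM to 1.46, 2.03, 2.85 and 2.35 TPM (log2 change -2.16, SE 0.20). Probable chitinase 3 (gene781), of a family that breaks down chitin, went from 120.2, 145, 149 and 138 TPM to 23.1, 21.2, 33.7 and 32.2 TPM (log2 change -2.31, SE 0.28). The libraries of the ages did not overlap in any of the 3. The largest fall of the comparison was in uncharacterized gene8014, named here after its values were seen, from 1828, 1853, 1806 and 1704 TPM to 0.57, 0.22, 0.48 and 0.11 TPM (log2 change -10.4, SE 0.40, adjusted p = 2.6e-25). In males it went from a mean of 1643 TPM to 1.93 TPM.

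Contractile muscle genes also took a smaller share on day 5, although few of them passed the threshold. Of 54 genes 6 fell (15 rescaled) and 3 rose (1 rescaled), with a median log2 change of −0.65 (−1.18 rescaled). The flight muscle actin (gene2198) went from 10074, 9609, 9031 and 9866 TPM to 545, 566, 1209.5 and 929.9 TPM (log2 change -3.65, SE 0.32, adjusted p = 3.2e-13). Flightin (gene1048), a thick filament protein of flight muscle, went from 3569.5, 3375, 3301 and 3571 TPM to 391, 403, 529 and 506 TPM (log2 change -2.93, SE 0.26, adjusted p = 3.7e-13). Troponin C isoform 1 (gene3241) and muscle actin-5 (gene6460) had log2 changes of -2.63 and -2.3, and the myosin light chains gene3368 and gene3122 of -2.33 and -2.06. Gene3122 was not called without 5-d-old replicate 1. The members that rose included paramyosin (gene11513), with a log2 change of 2.47 (1.89 rescaled), and myosin-9 (gene4402), which belongs to the non-muscle myosins, with 0.4, 0.47, 0.69 and 0.52 TPM on day 1 and 19.5, 20.4, 11.96 and 18.9 TPM on day 5. The summed share of the list was 7.66, 7.41, 7.37 and 7.66% on day 1 and 2.15, 2.15, 2.74 and 2.61% on day 5.

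The genes of oxidative phosphorylation were lower on day 5 without passing the threshold of 2 on the log2 scale, 63 of them at an unadjusted p under 0.05 in limma. How many of all genes tested pass that unadjusted limit was not counted. Of 75 none fell and 1 rose, 68 had a negative log2 change, and the median was −1.08 (−1.77 rescaled, with 14 that fell). Their summed share was 6.29, 6.42, 6.39 and 6.41% in the 1-d-old libraries and 2.58, 2.76, 3.24 and 2.86% in the 5-d-old libraries. The member that rose was a cytochrome c oxidase subunit 5A gene (gene3930), with 1.53, 0.74, 1.44 and 1.35 TPM on day 1 and 14.3, 18.5, 13.7 and 10.8 TPM on day 5, a low level beside the rest of the list.

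**Figure D3:**
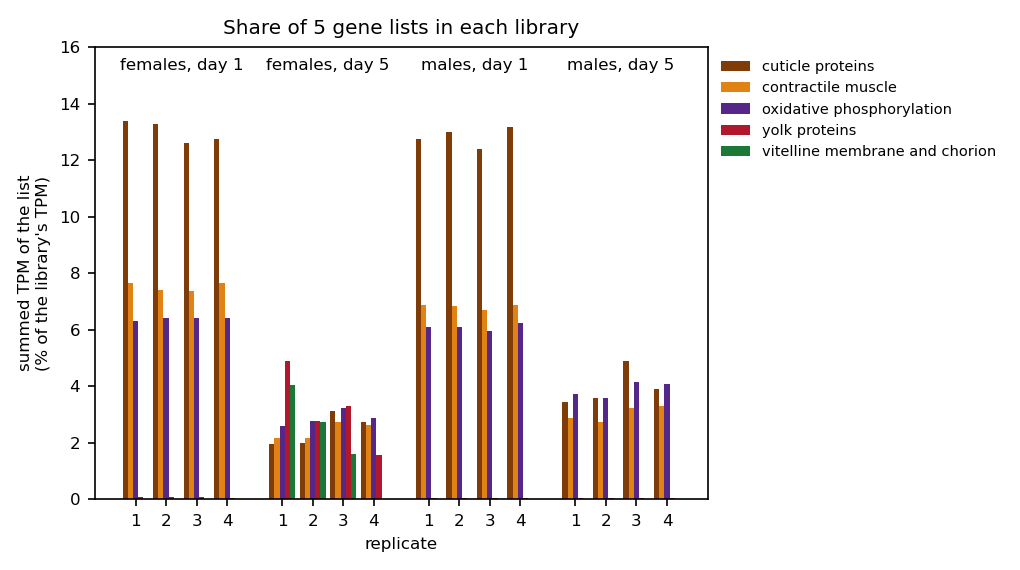
Bars give the summed TPM of a gene list as a percentage of the library's TPM on the y axis, for each replicate of 1-d-old and 5-d-old females and males on the x axis. Cuticle proteins take above 12% in every 1-d-old library and 1.95% to 3.11% in 5-d-old females, yolk and eggshell genes are visible in 5-d-old females and not in males, and the eggshell bar of replicate 4 is close to 0.

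Storage proteins, larval fat body proteins that feed metamorphosis, parted ways. Of 8 tested 3 fell (4 rescaled) and 1 rose. Larval serum protein 2 (gene6969) went from 277, 178, 359 and 336 TPM to 973, 3101, 1922 and 4444 TPM (log2 change 3.02, SE 0.40, adjusted p = 1.5e-08) and in males from a mean of 265 TPM to 3633 TPM. Fat-body protein 1-like gene12530 went from 33.6, 24.9, 44.7 and 23.01 TPM to 0.74, 0.74, 0.99 and 0.39 TPM (log2 change -4.21, SE 0.86, and with a term for read length -3.21, not called, adjusted p = 0.0914), larval serum protein 1 beta chain-like gene341 from 87.1, 75.8, 58.5 and 47.3 TPM to 10.9, 8.07, 6.9 and 11.9 TPM (log2 change -2.7, SE 0.56) and fat-body protein 1 (gene12529) from 31.5, 25.6, 64.1 and 31.7 TPM to 2.71, 3.63, 3.47 and 4.53 TPM (log2 change -3.02, SE 0.72). The changes of these 4 genes in males had the same signs. Glutathione S-transferase S1 (gene6950), abundant in flight muscle of *Drosophila*, fell from 3343 ± 374 TPM to 529 ± 101 TPM (SD, n = 4, log2 change -2.67, SE 0.13).

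In the following sensory, neural and metabolic lists rises were rarer than the 6.77% of all genes tested. Falls stood above the 1.04% of all genes tested in 3 lists, on 1 or 2 genes each. These were odorant-binding proteins (2.78%), fatty acid synthesis (4.76%) and detoxifying P450s (1.14%). None of 23 vision genes and none of 69 odorant and gustatory receptor genes was called by limma. At an unadjusted p under 0.05, 5 of the vision genes were higher and 13 lower, and 4 of the receptor genes were higher and 4 lower. Of 36 odorant-binding protein genes 1 rose (none rescaled) and 1 fell (4 rescaled), while 20 were lower at an unadjusted p under 0.05. Of 105 genes for neuronal channels and receptors 1 rose (none rescaled) and none fell, while 11 were higher and 51 lower at an unadjusted p under 0.05. For these unadjusted counts, too, no share of all genes tested was counted. The odorant-binding protein gene that rose, odorant-binding protein 19d-like gene8656, had 13.5, 162, 87.6 and 0.63 TPM on day 5 after 3.44, 2.77, 2.93 and 3.67 TPM on day 1, and its ages overlapped. It was not called without 5-d-old replicate 2 (log2 change 1.61) or 3 (1.91). Of 23 glycolysis genes 1 rose, of 42 fatty acid synthesis genes 1 rose and 2 fell (5 rescaled), and of 88 detoxifying P450 genes 5 rose (2 rescaled) and 1 fell (3 rescaled). Among 5 sex determination genes, transformer-2 (gene4521), a splicing factor, was called higher with a log2 change of 2.29 (1.63 rescaled, below the threshold), and doublesex (gene11230) was not called (0.92).

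**Figure D4:**
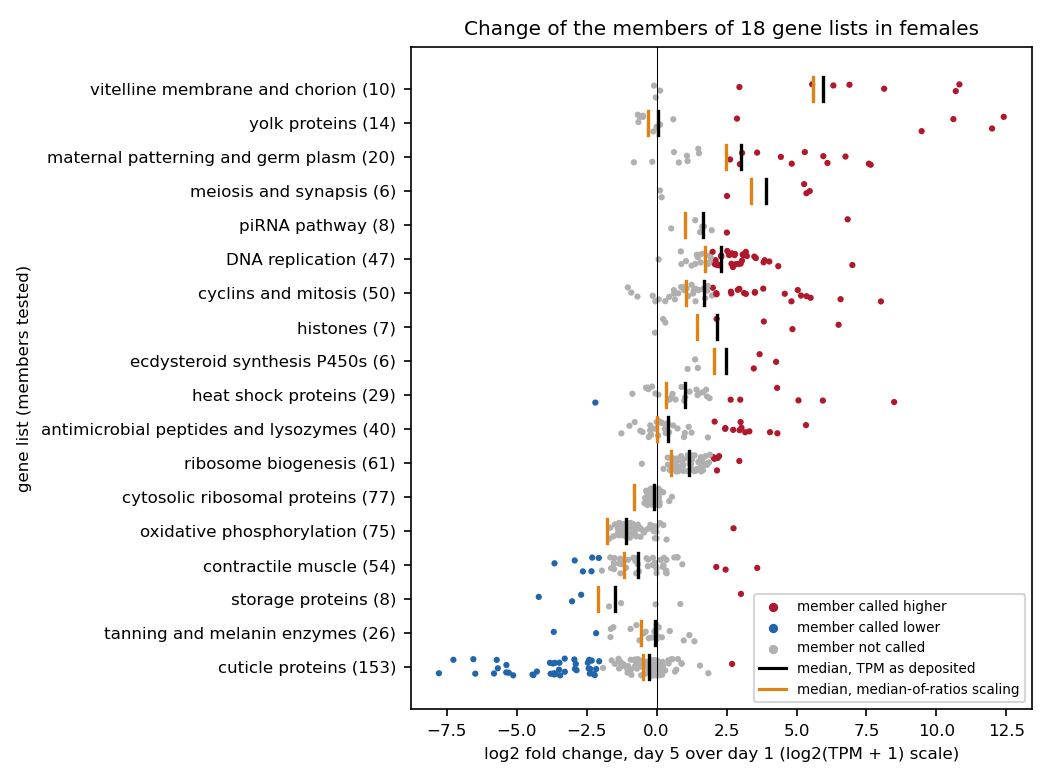
Each point is 1 gene, placed by its log2 change from day 1 to day 5 on the scale of log2(TPM + 1) on the x axis and by its list on the y axis, with the number of members tested in parentheses and the median before (black) and after (orange) median-of-ratios scaling. Yolk and eggshell genes reach furthest to the right, the 47 replication genes lie at or right of 0, and 40 of 153 cuticle genes are called lower.

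The change in females was set against the change in males over the same days. In males 320 genes rose (1.87%) and 121 fell (0.708%). The change differed between the sexes for 1224 genes (7.16%), 983 more positive in females (5.75%) and 241 more negative (1.41%). With median-of-ratios scaling these counts were 687 and 372. Of the 1157 genes that rose in females 46 (3.98%) also rose in males, and for 918 (79.3%) the difference between the sexes was itself called in the same direction. Of the 178 genes that fell 76 (42.7%) also fell in males, the difference was called in the same direction for 11, and their median log2 change in males was −1.82. The rises were thus mostly larger in females by the test of the difference, while for most of the falls that test did not pass the threshold.

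The yolk and eggshell genes illustrate the first case. The difference between the sexes in the log2 change was 11.1 (SE 0.39, adjusted p = 2.7e-26) for vitellogenin-1-like gene11335, and its males held 0, 0.08, 0.13 and 0.4 TPM on day 1 and 5.14, 0.87, 0.88 and 1.93 TPM on day 5. For the Vm26Aa-like gene4571 it was 9.77 (SE 1.82, adjusted p = 1.7e-05). All 5 yolk genes, all 7 eggshell genes and all 12 maternal genes that rose had a called difference. The cuticle list illustrates the second, since 31 of its 153 genes fell in males (40 in females) and 1 difference was called. LCP-30 (gene9496) held a mean of 255 TPM in 1-d-old males and 0.953 TPM in 5-d-old males, and its difference was -0.5 (SE 0.27, adjusted p = 0.129).

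Few genes fell in females more than in males. Metallothionein-1-like gene7501, named for a protein that binds metals, went from 15.98, 21.8, 29.2 and 28.1 TPM to 1.52, 0.32, 1.07 and 0.67 TPM in females and from 28.7, 27.7, 21.1 and 14.3 TPM to 19.6, 51.6, 69.8 and 31.6 TPM in males, a difference of -4.49 (SE 0.50, adjusted p = 3.2e-10). Trichohyalin (gene11476) kept a mean of 51.96 TPM in 5-d-old males, a difference of -4.15 (SE 0.37, adjusted p = 7.8e-13). A dehydrogenase/reductase of the SDR family (gene7577) went from 75.8, 71.5, 89.4 and 70.5 TPM to 28.1, 25.1, 13.4 and 11.8 TPM in females, with a difference of -2.46 (SE 0.67, adjusted p = 0.00236), and its call in females (log2 change -2.0) was lost without 1-d-old replicate 3 or 5-d-old replicate 3 or 4.

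For 5 of the 40 antimicrobial genes the change was more negative in females by the test of the difference (for 2 it was more positive). Defensin-1-like gene5881 went from 3.44, 4.46, 1.62 and 1.02 TPM to 23.9, 86.1, 18.9 and 18.4 TPM in females and to 969, 716, 90.6 and 234 TPM in 5-d-old males from 3.21, 0.49, 2.3 and 0 TPM (difference -4.19, SE 1.17, adjusted p = 0.00277). Defensin-A-like gene5879 and attacin-B-like gene4072 had differences of -3.81 and -4.3 (adjusted p = 0.0353 and 0.0358), both lost without several single libraries, and that of diptericin-A-like gene2001 was -3.1 (adjusted p = 0.0971), not called. In males 17 members of the list rose.

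**Figure D5:**
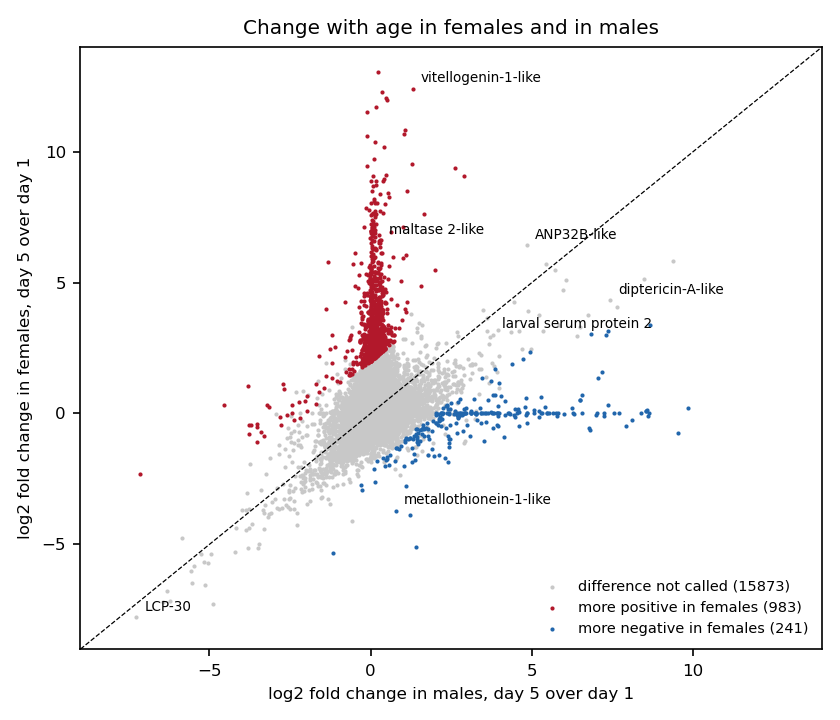
The log2 change from day 1 to day 5, on the scale of log2(TPM + 1), is plotted for each of 17097 genes in females on the y axis against males on the x axis, with equal changes on the dashed line and called differences coloured. The 983 genes with a more positive change in females form a column near 0 on the male axis, the 241 with a more negative change form a row near 0 on the female axis, and fallers such as LCP-30 lie near the line.

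Set beside the later age, the genes that rose by day 5 had a median of 60.5 TPM on day 9 and those that fell had 1.33 TPM. These values share the 5-d-old libraries' selection and carry no test. Yolk genes stood lower on day 9, with 4682, 4122, 9896 and 4666 TPM for gene11335, while cyclin-B, bicaudal C and maltase 2-like had higher means, 1081, 571 and 7182 TPM. The eggshell genes were again uneven among the 9-d-old libraries, with 1809, 30.2, 5398 and 4.86 TPM for gene4569. In eggs, 636 of the 1157 genes that rose (55.0%) had a mean above 10 TPM, against 87 of the 178 that fell (48.9%) and 40.2% of all genes tested. Cyclin-B held 229.6 TPM there and H1-like gene12712 215 TPM, while vitellogenin-1-like gene11335 held 0.0825 TPM and Vm26Aa-like gene4569 0.0725 TPM.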

How the data were processed

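Poly(A) RNA of whole melon flies was sequenced with paired ends on an Illumina HiSeq instrument in 52 libraries of 13 stages. Reads were cleaned by the authors (SeqPrep, Sickle), mapped with HISAT2 2.1.0 and assembled into new transcripts with StringTie, and the deposited TPM values were estimated in each library by RSEM 1.3.1 and rounded to 2 decimals. The genome build is not given in the sources used here. No table of read counts was used here, and each column sums to 1000000 TPM (±1). Labels do not say whether the pools of an age came from separate cohorts, so p-values measure the spread between pools. That spread was estimated over all 13 stages, not among the compared pools alone. In a limma fit of the compared stages alone the adjusted p went from 9.4e-05 to 0.094 for S36 (gene4407) and from 6.9e-04 to 0.192 for gene8656. Of 166 results, on single genes and on the counts of genes called, 161 were the same there. The other 5 were results on single genes that lost their call.

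Values of log2(TPM + 1) were fitted with limma 3.58.1 in R 4.3.3, 1 mean per stage over all 52 libraries (39 residual degrees of freedom), with a trend and robust variances. The contrasts were 5-d-old minus 1-d-old females, the same in males, and the difference between them, with Benjamini-Hochberg adjustment over 17097 genes. A fold change on this scale understates the change of genes with low TPM. On simulated data of the female comparison (17097 genes) 48 of 50 genes given a rise of 3 on the log2 scale, and 50 of 50 given a fall of 3, were called, with 1 of 16897 unchanged genes called. The simulation gave a gene the same spread in every stage and changed only genes of middle level on day 1. It does not cover changed genes near 0 TPM on day 1, or genes as uneven on day 5 as those of the eggshell. Tables and figures were made in Python 3.11.15 with pandas 2.3.3, numpy 2.4.6 and matplotlib 3.10.9.

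The gene lists, by product name, were chosen with earlier results of these data known, as was the comparison. Genes named are the 12 largest rises and falls with at least 10 TPM, no overlap and an informative product, the up to 4 called members of highest TPM per list and all members of lists of at most 8, the 5 most abundant genes per age, and the 8 largest differences between the sexes in each direction. The text names part of these, and other list members, neighbours and genes with uneven libraries or strong changes were picked after their values were seen. Of 13760 reference genes 11864 matched the RefSeq gene table, used for gene order only. Alternatives were another pseudocount, threshold, filter, scaling, variance model, sample set, a replicate block, a term for read length class (shorter or longer mean reads) and leaving out each library.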

Additional observations from a re-analysis of the deposited data

Results flagged for a closer look

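In 12 of 220 groups of 4 libraries tested with Dixon's criterion at 95% (the gap of a library to its neighbour over the range of the group, in groups whose highest library had at least 1 TPM), 1 library stood apart. Chance alone gives about 1 in 20. The groups, however, belong to the 137 genes named in the text, some of them picked for uneven libraries, and the genes share libraries. The count therefore cannot be set against that rate. Of the 12, 8 were groups at 5 d of age and 4 at 1 d. At 5 d, replicate 4 stood low for Vm26Aa-like gene4571 (26.22 TPM) and gene4569 (3.73 TPM), chorion protein S16 gene4310 (1.1 TPM) and fibroin heavy chain-like gene4308 (32.73 TPM). Replicate 3 stood low for Sgs-3-like gene9664 (1979.69 TPM), dorsal-like gene7728 (42.47 TPM) and myosin-9 gene4402 (11.96 TPM), and replicate 2 stood high for defensin-1-like gene5881 (86.13 TPM). At 1 d, Mcm2 gene7267 was low in replicate 4 (2.38 TPM), cecropin-1-like gene3362 high in replicate 1 (8.66 TPM), attacin-B-like gene4073 low in replicate 3 (0.58 TPM) and Sex-lethal homolog gene2566 low in replicate 2 (7.79 TPM).

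The change from day 1 to day 5 differed between females and males, by the test of the difference in limma, for a set of the genes named in the report. The difference was positive for MSTRG.10035 (12.36), vitellogenin-2-like gene11334 (11.48), vitellogenin-1-like gene11335 (11.10) and gene9671 (10.71), extensin-like gene11236 (9.78), Vm26Aa-like gene4571 (9.77) and gene4569 (9.65), Sgs-3-like gene9664 (9.61), trypsin-like gene5052 (8.72), thioredoxin-1 gene4436 (8.65), cyclin-B gene5861 (7.58), chymotrypsin inhibitor-like gene13720 (6.76), maltase 2-like gene3617 (6.31) and insulin receptor gene9355 (4.91). For MSTRG.10035, gene4569 and gene5052, listed at 0 in 1-d-old females, these fitted values depend on the pseudocount and are no bound. The difference was negative for metallothionein-1-like gene7501 (−4.49), attacin-B-like gene4072 (−4.30, adjusted p = 0.0358), defensin-1-like gene5881 (−4.19), trichohyalin gene11476 (−4.15), defensin-A-like gene5879 (−3.81, adjusted p = 0.0353) and SDR family gene7577 (−2.46).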

How the results depend on the processing

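The counts of genes that rose and fell moved most with the threshold, the pseudocount and the scaling. With an absolute log2 fold change above 1, 3459 genes rose and 805 fell, and the difference between the sexes was called for 2805 positive and 947 negative genes. With a pseudocount of 0.1 the counts were 1743 and 379, and 416 negative differences. With median-of-ratios scaling they were 693 and 379, and 372 negative differences. Leaving out 1 library at a time gave 1104 to 1239 genes that rose, 169 to 194 that fell, 936 to 1042 positive and 236 to 258 negative differences. The other settings kept these counts within 1.5 times, among them no filter (1157 and 178), a filter at 1 TPM (1138 and 177), the compared stages alone (1139 and 176), no trend (1157 and 178) and a term for read length (1064 and 201), which can be estimated within 7-d-old larvae only, where 8 genes differed (2 higher and 6 lower).

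The 166 results compared were those on single genes and the above counts of genes called. A count was taken as kept if it stayed within 1.5 times. With a library left out 1513 of 1544 values were kept, while 29 calls of single genes were lost and 2 were gained. Of 1328 values under other settings 1279 were kept, while 35 calls of single genes were lost and 2 were gained. The sign changed in 2, histone H3.3 (gene6540) at −0.39 and histone H4 (gene6094) at −0.46 under median-of-ratios scaling. The rest were counts of genes called that moved by more than 1.5 times. With the term for read length fat-body protein 1-like gene12530 was not called (log2 change -3.21, adjusted p = 0.0914), nor was cuticle protein 1 gene12051 (log2 change −1.70). The causes were not tested.

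The replicate numbers shared by the ages do not pair the samples, since deviations of same-numbered libraries from the age means correlated at −0.001, −0.035, −0.059 and −0.005, and no library correlated best with its own number. With a replicate block 1128 genes rose and 174 fell, 974 and 246 differences were called, and 4 eggshell genes were called in place of 7, without S38 (gene4406, adjusted p = 0.0615), S36 (gene4407, 0.133) and nudel (gene7980, 0.0819). No read counts per gene were used here, so no counting interval can be given, and levels near 0 TPM are known only to the 2 decimals deposited. The 4 pools per age limit what can be said of genes that differ among pools, such as those of the eggshell.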

Other observations

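Some further genes rose outside the lists described so far. CD109 antigen-like gene7804 and its neighbour in number gene7805, named for thioester proteins that bind microbes in insects, went from 1.05, 0.68, 1.17 and 0.8 TPM to 61.3, 89.2, 45.6 and 68.6 TPM and from 2.2, 2.22, 2.9 and 1.49 TPM to 71.4, 117, 60.3 and 88.9 TPM. Their log2 changes were 5.09 (SE 0.31, adjusted p = 3.0e-18) and 4.71 (SE 0.30, adjusted p = 7.0e-18), and in males 6.07 and 5.96. Both were raised in every 5-d-old library, with less spread among these libraries than diptericin-A-like gene2001. In females 6.77% of all genes tested rose and 1.04% fell. Of 51 peptidoglycan recognition and Toll pathway genes 3 rose in females (5.88%, 3 rescaled), in a list that counts dorsal-like gene7728. In males 9 of the list rose, where 1.87% of all genes tested did. Of 44 autophagy and apoptosis genes 4 rose (9.09%, 3 rescaled) and 1 fell (2.27%). The highest of these on day 5 among the genes named here was gene7945, annotated as cell death abnormality protein 1, a receptor for engulfing dead cells in *Caenorhabditis elegans*, with 0.17, 0.34, 0.32 and 0.41 TPM on day 1 and 203, 207, 137 and 163 TPM on day 5 (log2 change 7.07, SE 0.10, adjusted p = 1.6e-41). Males held a mean of 0.08 TPM on day 5.

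Of 85 genes for chitin enzymes and the peritrophic matrix 8 rose (9.41%, 5 rescaled) and 2 fell (2.35%, 5 rescaled). Of 32 lipases 3 rose (9.4%, 2 rescaled) and 1 fell (3.1%, 2 rescaled). Of all genes tested 6.77% rose and 1.04% fell. In 9-d-old females P450 306a1 (gene5569), one of the ecdysteroid genes that rose by day 5, stood at a mean of 2.73 TPM and P450 307a1-like (gene9243) at 7.29 TPM, while P450 315a1 (gene11123) held 26.3 TPM. Exuperantia (gene1934) was the exception among the maternal genes named here in its male level, with means of 347 TPM and 425 TPM in 1-d-old and 5-d-old males against 15.7 TPM in 1-d-old females.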
